A study of Mus musculus with 18 samples.

Results

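Nucleotides for RNA and DNA are either built from amino acids, bicarbonate and an activated ribose or recovered from free bases and nucleosides. Serine synthesis branches from glycolysis, and folate enzymes move single carbons from serine into the purine ring and into thymidylate. Resting lymphocytes make little use of these routes, and their induction is a known feature of lymphocyte activation ahead of growth and division. The genes described here are 33 enzymes of these routes, chosen by function: serine synthesis (Phgdh, Psat1, Psph), folate one-carbon transfer (Shmt1, Shmt2, Mthfd1, Mthfd1l, Mthfd2), ribose activation (Prps1, Prps2), purine synthesis and its branches (Ppat, Gart, Pfas, Paics, Adsl, Atic, Adss, Impdh1, Impdh2, Gmps), purine salvage (Hprt, Aprt), pyrimidine and CTP synthesis (Cad, Dhodh, Umps, Ctps, Ctps2), nucleoside diphosphate kinases (Nme1, Nme2) and deoxynucleotide supply (Rrm1, Rrm2, Tyms, Tk1). A gene was represented by its probe set of highest mean among those annotated with a single gene symbol. Such a probe set existed for 32 of the 33 genes, Impdh2 being the exception, and 31 passed the filter on low signal, out of 11104 genes tested. Tyms, thymidylate synthase, did not pass, with signals of 1.58 to 21.1 over all arrays.

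Splenic B cells carrying CD23, a marker of follicular B cells, were taken from C57BL/6J mice and measured on 18 Affymetrix Mouse Genome 430 2.0 arrays. The 4 groups were PBS after vehicle (n = 4), antibody against IgD after vehicle (n = 4), PBS after PF-303 (n = 5) and antibody against IgD after PF-303 (n = 5). PF-303 inhibits BTK, a kinase that carries the signal of the B-cell receptor, and the antibody crosslinks that receptor in the living animal. The inhibitor preceded the antibody by 2 h, and the harvest followed the antibody by 2 h. The dose of PF-303, the age and sex of the mice and any pooling of animals are not given in the sources used here, and the spread behind each p-value, that between samples, may therefore be technical.

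All values below are MAS5 signals, a linear intensity, listed in the order of the replicate numbers, which are 1, 2, 4 and 5 in anti-IgD with vehicle. Fold changes are on the scale of log2(signal + 16), which understates the change of weak genes. A gene passed the test at a Benjamini-Hochberg adjusted p under 0.05 over all 11104 genes in a limma fit. Other probe sets of a gene were tested in a separate limma fit of all probe sets past the filter, with p adjusted over those probe sets. Of 10 follicular B-cell markers, 8 had a usable probe set and all 8 passed the filter on low signal. Their summed signal was 15445 to 18389 in anti-IgD with vehicle and 21746 to 40617 in PBS with vehicle, with no overlap. Of 6 measured T-cell markers, Cd3e, Cd4 and Cd8b1 stayed below the filter, and the list summed to 41.5 to 106 over all arrays. The 5 macrophage and monocyte markers summed to 827 to 2894 in anti-IgD with vehicle and 1376 to 1946 in PBS with vehicle. The 6 marginal zone and B1 markers summed to 3794 to 4372 and 4948 to 6184 in the same groups. Of these 6, 2 were called higher and 4 lower, so the list moved both ways. These are 33.3% and 66.7%, against 17.4% and 30.6% of all genes. Pecam1 was the 1 of 4 stromal and endothelial markers past the filter, in a list that summed to 80.5 to 122 and 176 to 382 in the same groups. In bulk RNA, fewer cells of a type and less RNA per cell cannot be told apart. Hybridisation controls exceeded 2 times the median of all arrays in 6 arrays, which were PBS with vehicle replicates 3 and 4, PBS with PF-303 replicates 3 and 4 and anti-IgD with PF-303 replicates 1 and 3. None of them was in anti-IgD with vehicle. The part of these markers in the results was not tested. That of the controls was not tested beyond the fits given below, without those arrays or with the control signal as a covariate.

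The 5 genes that at least doubled with anti-IgD in vehicle-treated mice were Shmt1, Ctps, Mthfd2, Ppat and Psat1. The 250 bases before the start of each are shown, chosen by the size of this rise alone. The sequences are RefSeq promoters of GRCm38.p6, read 5′ to 3′ toward the gene from the first start listed. Capitals mark a match to one of the searched motifs, the NRF1 palindrome (capitals in Ctps) or TTTCCCGC (E2F, printed as its reverse complement).
Shmt1, chr11:60811266-60811515, minus strand: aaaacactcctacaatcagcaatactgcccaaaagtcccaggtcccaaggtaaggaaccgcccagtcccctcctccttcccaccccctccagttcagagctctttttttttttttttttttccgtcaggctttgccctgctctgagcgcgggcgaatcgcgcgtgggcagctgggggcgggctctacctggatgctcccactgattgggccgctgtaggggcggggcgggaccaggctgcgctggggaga
Ctps, chr4:120570277-120570526, minus strand: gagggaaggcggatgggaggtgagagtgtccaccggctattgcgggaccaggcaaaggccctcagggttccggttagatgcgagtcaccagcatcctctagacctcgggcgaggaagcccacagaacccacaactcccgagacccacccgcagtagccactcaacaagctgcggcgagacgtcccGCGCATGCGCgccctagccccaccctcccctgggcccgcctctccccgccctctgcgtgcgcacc
Mthfd2, chr6:83317605-83317854, minus strand: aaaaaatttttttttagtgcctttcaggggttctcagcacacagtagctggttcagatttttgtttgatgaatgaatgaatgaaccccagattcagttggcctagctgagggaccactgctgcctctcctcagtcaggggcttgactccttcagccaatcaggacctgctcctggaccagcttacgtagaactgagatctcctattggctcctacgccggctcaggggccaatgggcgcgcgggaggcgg
Ppat, chr5:76951579-76951828, minus strand: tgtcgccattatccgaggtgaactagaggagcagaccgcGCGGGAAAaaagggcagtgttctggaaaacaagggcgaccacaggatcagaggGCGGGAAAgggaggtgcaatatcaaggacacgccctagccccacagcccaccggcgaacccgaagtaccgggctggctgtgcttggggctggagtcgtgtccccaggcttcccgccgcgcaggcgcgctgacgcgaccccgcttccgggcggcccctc
Psat1, chr19:15925060-15925309, minus strand: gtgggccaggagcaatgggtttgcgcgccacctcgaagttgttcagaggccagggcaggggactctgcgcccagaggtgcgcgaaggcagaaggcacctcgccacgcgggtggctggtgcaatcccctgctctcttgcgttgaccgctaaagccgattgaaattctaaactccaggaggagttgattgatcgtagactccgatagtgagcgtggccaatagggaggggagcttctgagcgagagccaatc

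The promoter table held 31 of the 33 genes, Pfas and Dhodh being absent from it, and motifs were searched on both strands of 300 bases, 250 before the start and 50 after it. The E-box CACGTG, which MYC binds, occurred in 5 of 31 (Paics, Atic, Impdh2, Nme1 and Tyms) against 8.09% of 27025 genes, and in 2 of the 19 promoters of genes that rose with anti-IgD. The NRF1 letters occurred in Ctps, 65 bases before the start, and in Shmt2, 19 bases before it, against 1.07% of genes. TTTCCCGC occurred in Ppat, 211 and 158 bases before the start, and in Prps2, against 1.24% of genes. The other E2F motif, TTTGGCGC, matched 0 of the 31 and 0.585% of genes, and TGATGNAA, the core of the element for ATF4, matched Prps1 and 4.51% of genes. None of these motifs was found in the windows of Shmt1, Mthfd2 or Psat1. The synthesis genes' promoters had a median G and C content of 60.3% and a median of 17 CpG pairs, against 52.7% and 7 over all genes.

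In vehicle-treated mice anti-IgD raised 20 of the 31 synthesis genes and lowered 5, and 6 did not pass the test. Rises were found along the purine and pyrimidine routes, from ribose activation by Prps1 to CTP synthesis by Ctps. The largest was that of Shmt1, the cytosolic enzyme that moves a carbon from serine to folate, which rose 6.11-fold. The falls were Psph, the last enzyme of serine synthesis, the isozymes Prps2 and Ctps2, and Rrm2 and Tk1 of deoxynucleotide supply. Over all genes 17.4% were higher and 30.6% lower in this comparison. The median change of the 31 was 0.48 on the log2 scale against -0.13 over all genes, and 24 of 31 were above 0. Rises of at least 2-fold were found in 5 of 31 and in 3.54% of all genes.

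**Figure D1:**
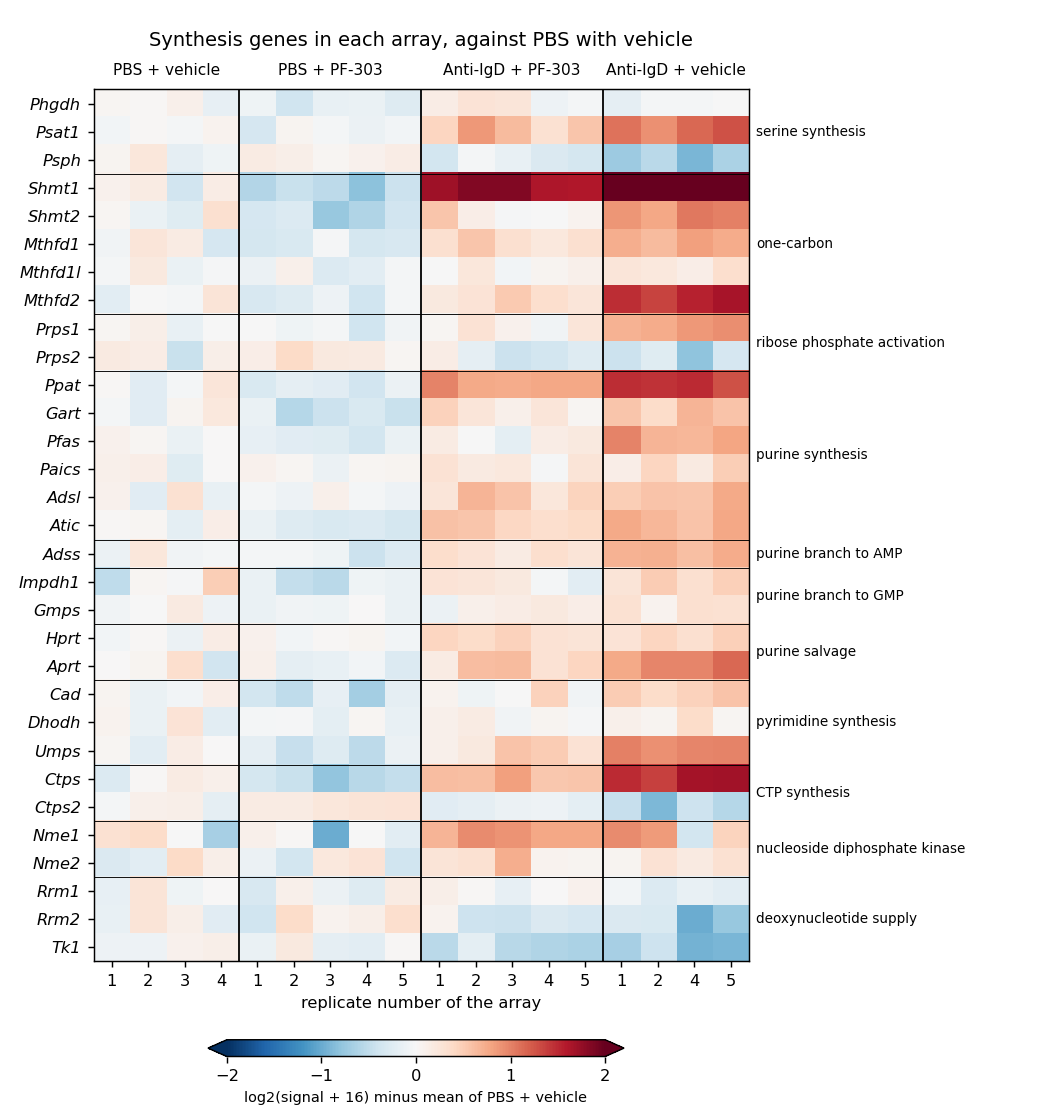
Heat map of log2(signal + 16) minus the mean of PBS with vehicle for the 31 synthesis genes that passed the filter (rows, grouped by role) in each of the 18 arrays (columns, grouped by treatment and numbered by replicate); red is higher and blue lower, and colours saturate at 2. Shmt1 was highest in the 4 arrays of anti-IgD with vehicle (421 to 503) and next in the 5 of anti-IgD with PF-303 (223 to 268), while Psph, Ctps2, Rrm2 and Tk1 were blue in anti-IgD with vehicle.

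Serine synthesis did not move as one. Phgdh, which commits a glycolytic intermediate to serine, had means of 862 ± 70.4 in PBS and 818 ± 43.5 in anti-IgD with vehicle (SD, n = 4), a log2 change of -0.07 (SE 0.093, adjusted p = 0.563). Psat1 encodes the transaminase that follows it. Psat1 gave signals of 165, 174, 166 and 181 in PBS with vehicle and of 383, 338, 398 and 439 in anti-IgD with vehicle. Under PF-303 the Psat1 signals were 133, 178, 167, 157 and 164 with PBS and 237, 325, 273, 216 and 259 with anti-IgD. All 4 anti-IgD arrays with vehicle exceeded every other array, and the PF-303 arrays with anti-IgD lay between the PBS arrays and the vehicle ones. Psat1 rose 2.16-fold, a log2 change of 1.11 (SE 0.11, adjusted p = 1.79e-08). Psph, the phosphatase that releases serine, went the other way. Psph gave signals of 219.7, 248, 183 and 198 in PBS with vehicle and of 121, 140.4, 104 and 129.8 in anti-IgD with vehicle. Under PF-303 the Psph signals were 238, 231, 217, 226 and 237 with PBS and 159.6, 205, 189, 169.7 and 162 with anti-IgD. The anti-IgD arrays with vehicle were the lowest, without overlap with any other group. Psph fell by 0.71 on the log2 scale (SE 0.10, adjusted p = 4.57e-06).

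One-carbon enzymes rose in both compartments of the cell. Shmt1 gave signals of 66.9, 71.8, 44.0 and 70.9 in PBS with vehicle and of 437, 421, 498 and 503 in anti-IgD with vehicle. Under PF-303 the Shmt1 signals were 36.4, 41.6, 38.3, 28.5 and 42.5 with PBS and 237, 268, 268, 224 and 223 with anti-IgD. Both anti-IgD groups were far above both PBS groups, and the groups with vehicle and with PF-303 did not overlap at either state. The log2 change of Shmt1 with anti-IgD in vehicle was 2.61 (SE 0.12, adjusted p = 2.11e-13), and its 3 other probe sets gave 1.56, 1.68 and 2.74. Shmt2 is the mitochondrial isozyme. Shmt2 gave signals of 333, 293, 271 and 406 in PBS with vehicle and of 604, 564, 684 and 666 in anti-IgD with vehicle. Under PF-303 the Shmt2 signals were 253, 263, 183, 207 and 243 with PBS and 481, 355, 317, 319 and 338 with anti-IgD. Its vehicle arrays with anti-IgD were above every other array. Shmt2 rose 1.90-fold, with a log2 change of 0.93 (SE 0.13, adjusted p = 4.9e-06), and its other probe sets gave 0.80, 0.49 and 0.24, of which 0.80 passed the test.

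Mthfd1 interconverts folate-bound carbons in the cytosol. Mthfd1 gave signals of 218, 273, 257 and 177 in PBS with vehicle and of 387, 364, 413 and 392 in anti-IgD with vehicle. Under PF-303 the Mthfd1 signals were 176, 183, 224, 176 and 180.5 with PBS and 291, 341, 289, 265 and 289 with anti-IgD. Anti-IgD arrays with vehicle were all above the other groups, and Mthfd1 changed by 0.73 (SE 0.11, adjusted p = 7.97e-06). Mthfd1l releases formate in mitochondria. Mthfd1l gave signals of 295, 349, 276 and 297 in PBS with vehicle and of 360.0, 355, 333 and 388 in anti-IgD with vehicle. Under PF-303 the Mthfd1l signals were 279, 328, 249, 261 and 296 with PBS and 300.2, 357, 292, 315 and 327 with anti-IgD. Its groups overlapped, and the small rise of 0.23 (SE 0.09, adjusted p = 0.0406) was lost without any one of 6 arrays, with log2 changes of 0.19 to 0.23. Those arrays were PBS with vehicle replicates 1, 3 and 4 and anti-IgD with vehicle replicates 1, 2 and 5. Mthfd2 is the mitochondrial dehydrogenase and cyclohydrolase known for low levels in most adult tissues and high levels in dividing cells. Mthfd2 gave signals of 111, 130.5, 128 and 160.3 in PBS with vehicle and of 393, 358, 413 and 444 in anti-IgD with vehicle. Under PF-303 the Mthfd2 signals were 102, 107, 121, 96.3 and 128 with PBS and 152, 162, 195, 171 and 159 with anti-IgD. Anti-IgD arrays with vehicle stood alone at the top, and the PF-303 arrays with anti-IgD reached at most 195, partly within the range of PBS with vehicle. Mthfd2 rose 2.83-fold, a log2 change of 1.50 (SE 0.11, adjusted p = 1.73e-10), and its other probe set gave 1.25.

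Purine synthesis starts from the activated ribose made by Prps1 and Prps2. Prps1 gave signals of 306, 323, 269 and 297 in PBS with vehicle and of 492, 508, 557 and 584 in anti-IgD with vehicle. Under PF-303 the Prps1 signals were 298, 281, 291, 222 and 282 with PBS and 308, 369, 319, 284 and 357 with anti-IgD. Only the vehicle arrays with anti-IgD stood clear of the rest, at 492 and above. Prps1 rose 1.75-fold, a log2 change of 0.81 (SE 0.097, adjusted p = 4.27e-07). Ppat catalyses the committed step of the purine route. Ppat gave signals of 215, 177, 204 and 253 in PBS with vehicle and of 617, 601, 623 and 534 in anti-IgD with vehicle. Under PF-303 the Ppat signals were 167, 185, 178, 159 and 192 with PBS and 436, 369, 365, 374 and 374 with anti-IgD. The 4 groups formed separate ranges except that both PBS groups overlapped. Ppat changed by 1.42 (SE 0.093, adjusted p = 4.52e-11), 2.68-fold up, and its other probe set also gave 1.42.

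Later steps of the purine route include Gart and Pfas. Gart, which carries 3 activities of the route, went from 251 ± 34.1 to 371 ± 34.3 with vehicle (SD, n = 4), a log2 change of 0.54 (SE 0.11, adjusted p = 0.000297). Pfas adds the amide nitrogen of the ring. Pfas gave signals of 198, 191, 167 and 187 in PBS with vehicle and of 387, 306, 302 and 333 in anti-IgD with vehicle. Under PF-303 the Pfas signals were 164, 156, 155, 139 and 168 with PBS and 209, 184, 161, 208 and 215 with anti-IgD. The vehicle arrays with anti-IgD were all above 300, and no array of another group exceeded 215. Pfas changed by 0.78 (SE 0.097, adjusted p = 6.7e-07).

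Paics, which follows Pfas and Gart in the route, rose by 0.31 (adjusted p = 0.0133), with overlapping groups. That call was lost without PBS with vehicle replicate 3 (0.23) and without anti-IgD with vehicle replicate 5 (0.25), and was 0.19 without the arrays of high control signal. Adsl, which acts in both the route and the AMP branch, changed by 0.59 (SE 0.11, adjusted p = 0.000145), and Atic, the last enzyme before inosine monophosphate, by 0.69 (SE 0.082, adjusted p = 3.65e-07). Both had separate ranges of signals with and without anti-IgD. Adss opens the branch to AMP and rose from 753 ± 85.7 to 1217 ± 54.9 (SD, n = 4), a log2 change of 0.69 (SE 0.093, adjusted p = 2.26e-06). In the branch to GMP, Gmps rose by 0.25 (adjusted p = 0.0162) with overlapping groups. Impdh1, the first enzyme of that branch, had signals of 47.5, 76.6, 73.3 and 111 in PBS and 92.4, 113, 97.2 and 109.8 in anti-IgD with vehicle. These ranges overlapped, and the change of 0.39 (SE 0.17, adjusted p = 0.0545) did not pass, although it was 0.56 and passed without PBS with vehicle replicate 4.

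Ppat and Paics lie head to head on chromosome 5 of GRCm38.p6. The annotated genes, Ppat on the minus strand (chr5:76913249-76951578) and Paics on the plus strand (chr5:76951302-76967509), overlap by 277 bases at their starts. The sequence shown for Ppat therefore lies inside the annotated Paics gene. Ppat changed by 1.42 and Paics by 0.31 with anti-IgD in vehicle. The difference between these changes was not tested.

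Salvage enzymes for purine bases rose as well. Aprt, which recovers adenine, went from 431 ± 90.1 to 847 ± 92.5 (SD, n = 4), a log2 change of 0.96 (SE 0.13, adjusted p = 2.2e-06). Hprt, which recovers hypoxanthine and guanine, went from 933 ± 77.8 to 1214 ± 81.0, a log2 change of 0.38 (SE 0.077, adjusted p = 0.00035). Neither gene had overlapping ranges between these groups. Hprt is a frequent reference gene for expression measurements.

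In pyrimidine synthesis the 3 genes of the route differed in size. Cad, which carries the first 3 activities, changed by 0.48 (SE 0.12, adjusted p = 0.00231), and Umps, which makes uridine monophosphate, by 0.97 (SE 0.11, adjusted p = 2.86e-07). Dhodh, the mitochondrial step between them, changed by 0.14 (SE 0.11, adjusted p = 0.295), from 124 ± 21.7 to 137 ± 17.0 (SD, n = 4), and passed at 0.31 with arrays shifted to one median and at 0.30 with quantile normalization. CTP is made from UTP by Ctps and Ctps2. Ctps gave signals of 152, 191, 211 and 201 in PBS with vehicle and of 555, 509, 625 and 634 in anti-IgD with vehicle. Under PF-303 the Ctps signals were 143, 133, 102, 122 and 129.9 with PBS and 294, 293, 345, 281 and 284 with anti-IgD. The vehicle arrays with anti-IgD were all above 500, and the PF-303 arrays with anti-IgD all lay between them and the PBS arrays. Ctps rose 2.92-fold, a log2 change of 1.55 (SE 0.11, adjusted p = 1.06e-10). Ctps2 gave signals of 414, 455, 460.0 and 374 in PBS with vehicle and of 303, 220.0, 313 and 281 in anti-IgD with vehicle. Under PF-303 the Ctps2 signals were 479.6, 478, 499, 509.7 and 515 with PBS and 359, 372, 391, 395 and 370.3 with anti-IgD. Here the order was turned, with the highest signals in PBS with PF-303 and the lowest in anti-IgD with vehicle. Ctps2 fell by 0.59 on the log2 scale (SE 0.09, adjusted p = 1.22e-05).

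Nucleoside diphosphate kinases, which turn diphosphates into triphosphates, gave the least certain values. Nme1 gave signals of 1736, 1814, 1398 and 874 in PBS with vehicle and of 2702, 2538, 1085 and 1915 in anti-IgD with vehicle. Under PF-303 the Nme1 signals were 1506, 1422, 694, 1387 and 1206 with PBS and 2259.8, 2705, 2619.9, 2401 and 2412 with anti-IgD. Replicate 4 was the lowest array in both vehicle groups, and the groups overlapped. The Nme1 change of 0.47 (SE 0.25, adjusted p = 0.138) did not pass, was 0.75 and passed without anti-IgD with vehicle replicate 4, and was 1.15 and passed on the second probe set of the gene. Nme1 and Nme2 are closely related neighbours on chromosome 11. The probe set used for Nme1 is of a type that can cross-hybridise, so its values are uncertain. The probe sets used for Phgdh, Shmt2 and Rrm2 are of that type too, so the same caution holds for them. Nme2 gave signals of 2464, 2597, 3956 and 3274 in PBS with vehicle and of 3130.0, 3704, 3432 and 3719 in anti-IgD with vehicle. Under PF-303 the Nme2 signals were 2792, 2328, 3493, 3637 and 2277 with PBS and 3602, 3716, 4983, 3177 and 3143 with anti-IgD. These ranges overlapped, and the change of 0.21 (SE 0.17, adjusted p = 0.34) did not pass, although it was 0.46 and passed without the 6 arrays of high control signal.

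Deoxynucleotide supply did not rise with the rest. Rrm1 gave signals of 281, 382, 297 and 321 in PBS with vehicle and of 306, 260.3, 287 and 274 in anti-IgD with vehicle. Under PF-303 the Rrm1 signals were 251, 344, 293, 265 and 359 with PBS and 348, 324, 283, 322 and 337 with anti-IgD. Rrm1, the large subunit of ribonucleotide reductase, overlapped between groups and changed by -0.17 (SE 0.11, adjusted p = 0.208). Rrm2 gave signals of 223, 299.7, 272 and 209.7 in PBS with vehicle and of 201, 198, 117 and 141 in anti-IgD with vehicle. Under PF-303 the Rrm2 signals were 185, 327, 261, 272 and 319.5 with PBS and 260.5, 183, 181, 202 and 193 with anti-IgD. Rrm2, the small subunit, was lower in all 4 anti-IgD arrays with vehicle than in any PBS array with vehicle. It fell by 0.59 (SE 0.17, adjusted p = 0.0062). Tk1 gave signals of 64.3, 64.5, 75.4 and 76.9 in PBS with vehicle and of 38.3, 48.3, 28.9 and 29.7 in anti-IgD with vehicle. Under PF-303 the Tk1 signals were 62.6, 82.9, 59.9, 58.8 and 71.7 with PBS and 43.4, 59.1, 42.6, 40.9 and 39.6 with anti-IgD. Tk1, thymidine kinase, had its lowest signals in anti-IgD with vehicle and fell by 0.73 (SE 0.14, adjusted p = 0.000107). Prps2 gave signals of 969.9, 947, 619 and 919.5 in PBS with vehicle and of 626, 719, 479 and 669 in anti-IgD with vehicle. Under PF-303 the Prps2 signals were 936, 1109.9, 978, 961 and 877 with PBS and 949, 746, 629.9, 658 and 712 with anti-IgD. Prps2 ranges overlapped, and its fall of 0.45 (adjusted p = 0.0109) was lost without anti-IgD with vehicle replicate 4, where it was -0.34, with arrays shifted to one median (-0.29) and with the row letter as a block (-0.35). The RNA of Tk1 and Rrm2 is known to follow the cell cycle, and of 23 proliferation markers 1 was higher (Pcna, 0.87) and 6 lower in this comparison, or 4.35% and 26.1% against 17.4% and 30.6% of all genes. Their summed signal was 7321 to 7760 in anti-IgD with vehicle and 5940 to 7167 in PBS with vehicle, higher without overlap. The median log2 change of the 23 markers was -0.30, against -0.13 over all genes, so the sum and the median went in opposite directions. Those 7 calls became 4 and 3 without PBS with vehicle replicates 2 and 3, and 2 and 4 without anti-IgD with vehicle replicates 4 and 5. Their part in the falls of Rrm2 and Tk1 was not tested.

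The groups with and without anti-IgD did not overlap, with higher values, for 17 of the 31 genes against 15.2% of all genes, and with lower values for 4 against 27.2%. Shifting the arrays to one median moved the median of all genes from -0.13 to 0.04 and the calls over all genes from 17.4% higher and 30.6% lower to 25% and 19.6%, while the synthesis genes went from 20 higher and 5 lower to 23 and 4. Without the 6 arrays of high control signal 18 of the 20 rises and all 5 falls passed again. Mthfd1l (0.15) and Paics (0.19) lost their calls there, and Impdh1 (0.63) and Nme2 (0.46) gained one. Other probe sets numbered 34 for 20 of the genes. Of the 28 that belonged to genes past the test here, 28 had the same sign as the probe set used and 17 passed the test on their own. In that separate limma fit of all probe sets the rise of Mthfd1l fell short of the test (adjusted p = 0.0525).

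**Figure D2:**
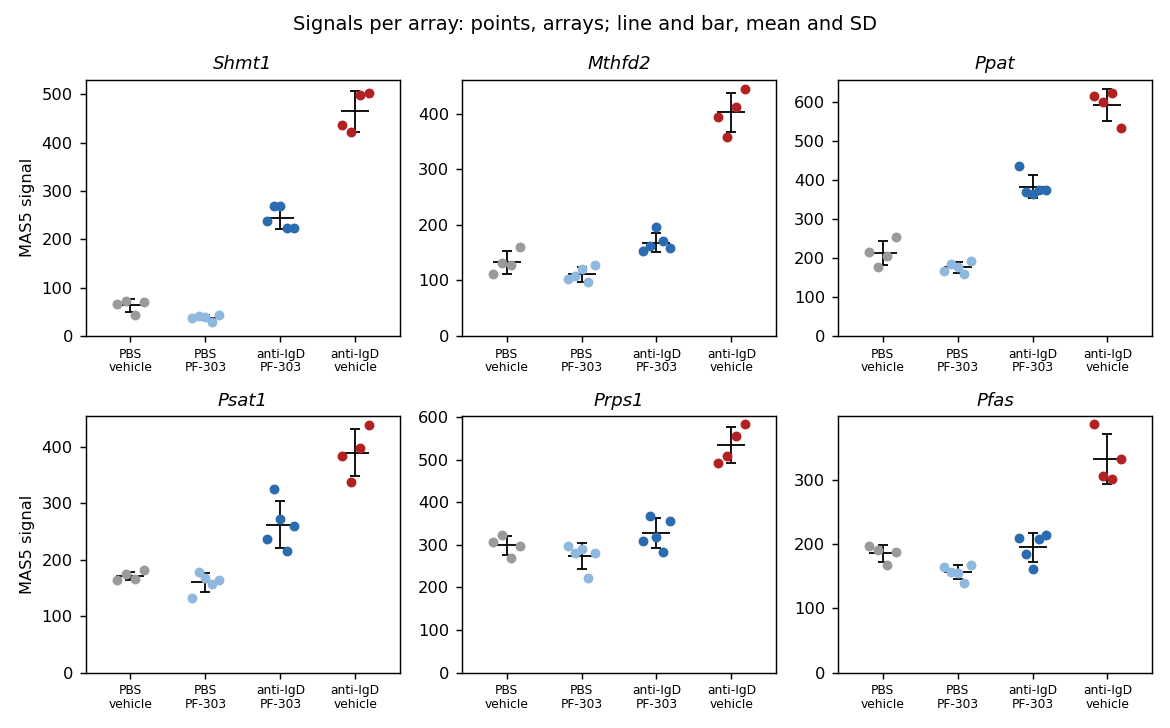
MAS5 signal (vertical axes, linear from 0) of Shmt1, Mthfd2, Ppat, Psat1, Prps1 and Pfas in each array of the 4 groups (horizontal axes); points are arrays, and the line with its bar is the mean and SD. Anti-IgD with vehicle is the highest group in all 6 panels, and for Mthfd2, Prps1 and Pfas the anti-IgD arrays with PF-303 (152 to 195, 284 to 369 and 161 to 215) sit near the PBS arrays.

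With PF-303, stimulated cells gave lower scaled signals for 15 of the 31 synthesis genes and higher ones for 2, relative to stimulated cells of vehicle-treated mice. Mthfd2 had the largest difference, 2.27-fold lower, and was followed by Ctps (1.89-fold), Shmt1 (1.85-fold), Shmt2 (1.72-fold) and Pfas (1.65-fold). The 2 higher genes were Psph, the serine phosphatase, and Ctps2, the second CTP synthase. Over all genes 10.4% were lower and 19.8% higher. The median of the 31 was -0.24 against 0.08 over all genes, and 22 of 31 were below 0. The marker lists moved too: follicular B-cell markers summed to 21803 to 32417 with PF-303 and 15445 to 18389 with vehicle in stimulated cells, and marginal zone and B1 markers to 5314 to 6503 and 3794 to 4372, both without overlap. Their part in the differences was not tested. This comparison shares the arrays of anti-IgD with vehicle with the one above, so the values of both are set side by side and no agreement between them is counted.

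The log2 difference with PF-303 in stimulated cells was -1.19 (SE 0.10, adjusted p = 2.5e-08) for Mthfd2, -0.92 (SE 0.10, adjusted p = 6.65e-07) for Ctps and -0.89 (SE 0.11, adjusted p = 3.98e-06) for Shmt1. It was -0.78 (SE 0.13, adjusted p = 5.83e-05) for Shmt2 and -0.72 (SE 0.092, adjusted p = 3.9e-06) for Pfas. In each of these 5 genes every PF-303 array lay below every vehicle array. Prps1 was lower by 0.69 (SE 0.092, adjusted p = 6.92e-06), Umps by 0.64 (adjusted p = 9.58e-05) and Ppat by 0.61 (adjusted p = 1.73e-05). Psat1 differed by -0.55 (adjusted p = 0.000239), Aprt by -0.54 (adjusted p = 0.00182), Adss by -0.41 (adjusted p = 0.00107), Cad by -0.40 (adjusted p = 0.0101) and Mthfd1 by -0.39 (adjusted p = 0.00647). The 2 smallest differences past the test were Gart at -0.32 (adjusted p = 0.0223) and Atic at -0.24 (adjusted p = 0.0245), both with overlapping groups. Gart lost its call without anti-IgD with vehicle replicate 4 (-0.28) or 5 (-0.31) and without anti-IgD with PF-303 replicate 3 (-0.29) or 5 (-0.28). Atic lost its call without anti-IgD with vehicle replicate 1 (-0.21) or 5 (-0.21) and without anti-IgD with PF-303 replicate 4 (-0.21) or 5 (-0.22).

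Psph was higher by 0.47 (SE 0.095, adjusted p = 0.000658) and Ctps2 by 0.42 (SE 0.086, adjusted p = 0.000602), and in both every PF-303 array with anti-IgD was above every vehicle array with anti-IgD. A further 5 genes that had risen with anti-IgD in vehicle did not pass here. Their differences were -0.02 (adjusted p = 0.898) for Hprt, -0.12 (adjusted p = 0.35) for Paics, -0.16 (adjusted p = 0.278) for Adsl, -0.16 (adjusted p = 0.129) for Gmps and -0.17 (adjusted p = 0.154) for Mthfd1l. Gmps passed, at -0.22, without anti-IgD with vehicle replicate 2. Phgdh (0.17), Prps2 (0.24), Impdh1 (-0.30), Dhodh (-0.10), Nme1 (0.35), Nme2 (0.07), Rrm1 (0.19), Rrm2 (0.31) and Tk1 (0.23) did not pass the test either. The second probe set of Nme1 went the other way in this comparison, at -0.24, and passed the test. Groups did not overlap, with lower values under PF-303, for 12 of 31 genes against 9.32% of all genes, and with higher values for 2 against 17.5%. With arrays shifted to one median the calls over all genes turned from 19.8% higher and 10.4% lower to 11.6% and 15.3%, and those of the synthesis genes were 2 and 17. With the row letter of a position code in the sample descriptions as a block they were 4 higher and 13 lower, the falls of Gart and Cad being lost and Rrm1 and Rrm2 being higher, while over all genes 9.63% were higher and 5.91% lower.

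Without stimulation few of these genes passed the test for PF-303. In PBS-treated mice 2 of 31 were lower and 0 higher by limma, against 0.675% and 0.072% of all genes, and at an unadjusted p under 0.05 the numbers were 12 and 1, against 5.82% and 4.77% of all genes. The median difference was -0.12 over the 31 genes and 0.01 over all genes. The 2 genes past the test were Shmt1, -0.56 (SE 0.11, adjusted p = 0.0169), and Ctps, -0.53 (SE 0.10, adjusted p = 0.0107). In both, every PF-303 array with PBS was below every vehicle array with PBS. Shmt1 lost its call without PBS with vehicle replicate 1 (-0.53), 2 (-0.51) or 4 (-0.51) and without PBS with PF-303 replicate 4 (-0.50). Ctps lost it without the arrays of high control signal, at -0.30.

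Shmt2 (-0.47 (adjusted p = 0.0902)), Cad (-0.38 (adjusted p = 0.15)) and Gart (-0.38 (adjusted p = 0.103)) had the next lower values, and groups did not overlap for Shmt2 and Cad. Shmt2 passed the test, at -0.47, without anti-IgD with PF-303 replicate 1, which bears on the shared spread only. Ctps2 was above its vehicle range in every PBS array with PF-303, with a difference of 0.22 (adjusted p = 0.336). Groups did not overlap for 4 genes with lower values and for 1 with higher values, against 2.42% and 1.68% of all genes. The 2 calls were 0 with the row letter as a block and 0 with only the arrays of these 2 groups.

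**Figure D3:**
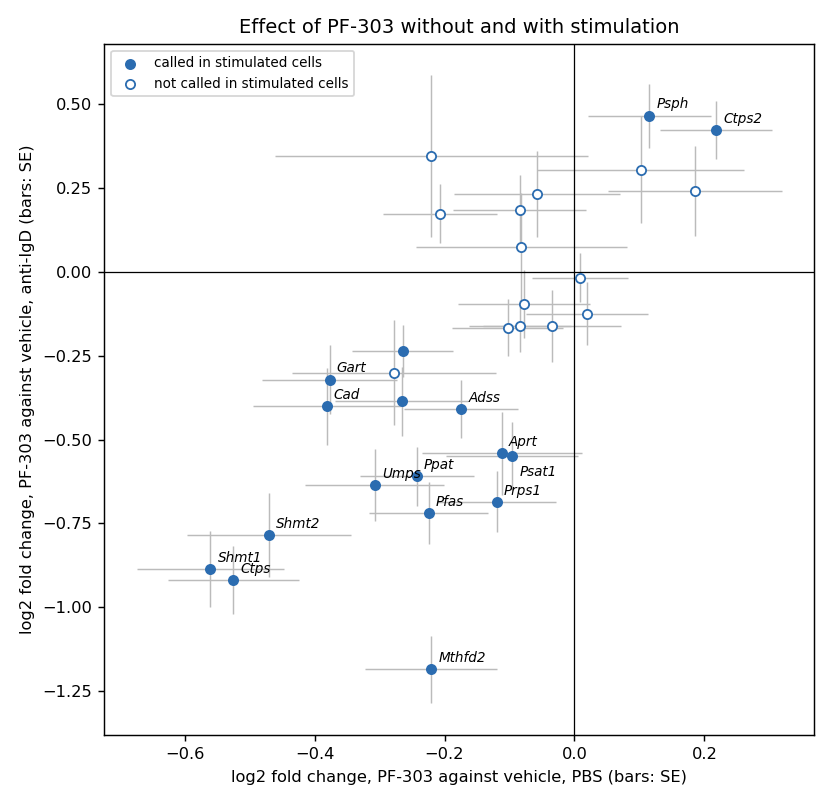
Log2 fold change of PF-303 over vehicle after anti-IgD (vertical axis) against that after PBS (horizontal axis) for the 31 genes; bars are SEs of the limma fit and filled points passed the test in stimulated cells. Mthfd2 lies lowest, at -1.19 with and -0.22 without stimulation, and Shmt1 and Ctps lie farthest to the left.

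Under PF-303, anti-IgD raised 19 of the 31 genes and lowered 4 relative to PBS with PF-303, against 14.7% and 19.1% of all genes. Of these, 17 rises and 4 falls were also called with vehicle. The share of all genes called in both responses was not taken, so this overlap cannot be read as particular to these genes. Phgdh and Nme1 were called here and not with vehicle, and Gmps, Mthfd1l, Paics and Rrm2 with vehicle and not here. In none of these 6 genes did the difference between the responses pass the test. The split of Nme1 held only for the uncertain probe set used. Its second probe set rose by 1.15 with vehicle and by 1.09 under PF-303, past the test in both. The difference between these 2 responses was -0.06, short of the test. Shmt1 rose 4.87-fold, Ctps 2.23-fold, Ppat 2.08-fold and Nme1 2.05-fold, the 4 genes with a rise of at least 2-fold here, against 1.82% of all genes. The median change of the 31 was 0.37 against -0.05 over all genes, and 26 of 31 were above 0. This response and the one in vehicle-treated mice share no array.

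The log2 change under PF-303 was 2.28 (SE 0.11, adjusted p = 2.97e-13) for Shmt1, 1.15 (SE 0.095, adjusted p = 3.15e-09) for Ctps, 1.06 (SE 0.083, adjusted p = 1.62e-09) for Ppat and 1.03 (SE 0.23, adjusted p = 0.00108) for Nme1. For the first 3 every anti-IgD array was above every PBS array with PF-303, and the same held for Nme1. Atic changed by 0.72 (adjusted p = 7.74e-08), Psat1 by 0.65 (adjusted p = 1.17e-05), Umps by 0.64 (adjusted p = 2.96e-05), Shmt2 by 0.62 (adjusted p = 0.000311) and Mthfd1 by 0.61 (adjusted p = 3.39e-05). Gart changed by 0.60 (adjusted p = 4.97e-05), Aprt by 0.54 (adjusted p = 0.000953), Mthfd2 by 0.54 (adjusted p = 0.000131), Adsl by 0.47 (adjusted p = 0.000901), Cad by 0.46 (adjusted p = 0.00203) and Adss by 0.45 (adjusted p = 0.000178). Smaller rises were those of Hprt (0.35 (adjusted p = 0.000387)), Phgdh (0.31 (adjusted p = 0.00576)), Pfas (0.29 (adjusted p = 0.0125)) and Prps1 (0.24 (adjusted p = 0.0345)). The other probe sets of Phgdh gave 0.32, 0.23 and 0.13, of which 0.32 passed the test. The rise of Prps1 was lost without PBS with PF-303 replicate 4 (0.17) and without anti-IgD with PF-303 replicate 2 (0.20) or 5 (0.21). It was 0.12 with the row letter as a block and 0.21 without the arrays of high control signal, lost in both. With the row letter the calls of Phgdh (0.21), Pfas (0.26) and Tk1 (-0.30) were lost as well. The falls under PF-303 were those of Tk1 (-0.44 (adjusted p = 0.00638)), Prps2 (-0.40 (adjusted p = 0.0174)), Ctps2 (-0.38 (adjusted p = 0.000762)) and Psph (-0.35 (adjusted p = 0.00365)). Prps2 lost its call without PBS with PF-303 replicate 2 (-0.35) and without anti-IgD with PF-303 replicate 3 (-0.35). Genes short of the test here passed it in single fits without 1 array. Impdh1 (0.37) did so without PBS with PF-303 replicate 4 (0.42) or anti-IgD with PF-303 replicate 5 (0.45), and Rrm2 (-0.38) without PBS with PF-303 replicate 1 (-0.51) or anti-IgD with PF-303 replicate 1 (-0.47). Both also passed, at the same value, without either of 2 arrays of the vehicle groups. Nme2 (0.36) did so without PBS with PF-303 replicate 3 (0.44) or 4 (0.45), Mthfd1l (0.17) without replicate 2 of that group (0.22) and Gmps (0.17) without anti-IgD with PF-303 replicate 1 (0.22). Groups did not overlap, with higher values, for 16 of 31 genes against 11.2% of all genes, and with lower values for 2 against 13.6%.

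Among the 20 genes that rose with vehicle, the log2 change under PF-303 was a median of 70.7% of that with vehicle, against 60.3% over the 1928 genes of the array that rose. These shares are descriptions, since genes were taken for their rise with vehicle. The lowest shares were 29.9% in Prps1, 35.7% in Mthfd2 and 36.8% in Pfas. The highest were 110% in Gart, 104% in Atic, 95.8% in Cad and 93.4% in Hprt, and Shmt1 had 87.5%. For Cad the other probe set gave 0.23 with vehicle, short of the test, and 0.57 under PF-303, which passed. Its difference with PF-303 in stimulated cells was -0.32, also short of the test. For Atic the other probe set gave 0.67 with vehicle and 0.55 under PF-303, both past the test. For Gart the other probe sets gave rises of 0.94, 0.88 and 0.36 with vehicle, against 0.54 on the one used, and their differences between the responses were -0.34, -0.47 and -0.52, none past the test.

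**Figure D4:**
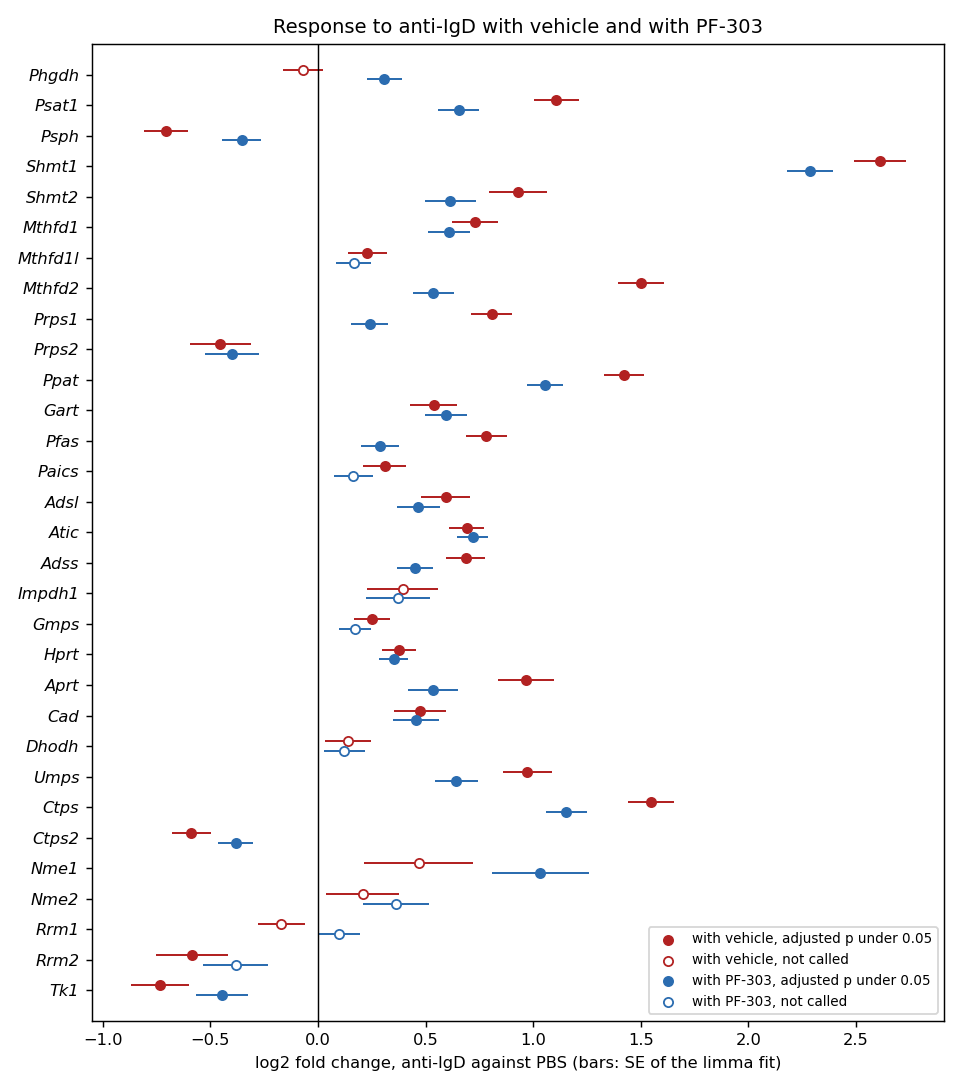
Log2 fold change of anti-IgD against PBS (horizontal axis) for the 31 genes in pathway order (vertical axis), in red with vehicle and in blue with PF-303; bars are SEs of the limma fit and filled points passed the test. The 2 points lie farthest apart for Mthfd2 (1.50 and 0.54) and coincide nearly for Atic, Cad and Hprt.

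The difference between the 2 responses was tested itself, as the response with PF-303 minus that with vehicle. It was below 0 and past the test in 4 of 31 genes and above 0 in 0, against 3.12% and 6.66% of all genes by limma, and at an unadjusted p under 0.05 the numbers were 8 and 2, against 7.73% and 16.4% of all genes. The 4 were Mthfd2, the mitochondrial folate enzyme, Prps1, which activates ribose, Pfas of the purine route and Psat1 of serine synthesis. Mthfd2 had a difference of -0.97 (SE 0.14, adjusted p = 0.000293) and Prps1 one of -0.57 (SE 0.13, adjusted p = 0.00796). Both kept the call with each array left out in turn, at -1.05 to -0.89 and -0.64 to -0.52. Pfas had -0.49 (SE 0.13, adjusted p = 0.0186), which was lost without the 6 arrays of high control signal, at -0.44, and with the row letter as a block, at -0.46. Psat1 had -0.45 (SE 0.14, adjusted p = 0.0476), which was lost in 15 of the 18 fits without 1 array, at -0.48 to -0.39. It was also lost with an offset of 1, with no filter, with no variance trend, with the replicate block, with the control covariate (-0.43), without the arrays of high control signal (-0.43) and with the row letter (-0.50). Its adjusted p from limma ranged from 0.00615 to 0.209 over these and the other settings. In the separate limma fit of all probe sets it was 0.0637, short of the test.

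In the other 27 genes the difference did not pass, which does not show that the responses were equal. It was 0.38 (adjusted p = 0.0566) for Phgdh, -0.37 (adjusted p = 0.065) for Ppat, -0.39 (adjusted p = 0.0848) for Ctps, 0.35 (adjusted p = 0.104) for Psph and -0.43 (adjusted p = 0.129) for Aprt. Phgdh passed without PBS with vehicle replicate 4 (0.44) and without anti-IgD with PF-303 replicate 4 (0.43) or 5 (0.42). Ppat passed without PBS with vehicle replicate 4 (-0.45) and without anti-IgD with PF-303 replicate 1 (-0.41). Ctps passed without PBS with PF-303 replicate 3 (-0.46), and Aprt without PBS with vehicle replicate 3 (-0.54). Without the 6 arrays of high control signal Ctps (-0.68), Shmt2 (-0.58, against -0.31 with all arrays) and Ppat (-0.55) passed. The median difference over the 31 was -0.06 against 0.07 over all genes. With arrays shifted to one median the calls over all genes went from 6.66% higher and 3.12% lower to 3.11% and 6.2%, and the synthesis genes had 0 higher and 6 lower.

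Several steps are run by pairs of isozymes or paired subunits, and in most pairs the members changed unequally. The pair difference, taken within each array on the log2 scale, was compared between groups by a two-sided exact permutation test over arrays, with p adjusted over the 6 pairs tested. The smallest p that 4 arrays against 4 allow is 0.0286. With anti-IgD in vehicle, Ctps exceeded Ctps2 in its change by 2.14 (SE 0.13, exact permutation p = 0.0286, adjusted p = 0.0429). Shmt1 exceeded Shmt2 by 1.68 (SE 0.11, exact permutation p = 0.0286, adjusted p = 0.0429), and Prps1 exceeded Prps2 by 1.26 (SE 0.18, exact permutation p = 0.0286, adjusted p = 0.0429). Mthfd1 exceeded Mthfd1l by 0.50 (SE 0.14, exact permutation p = 0.0286, adjusted p = 0.0429). For Nme1 and Nme2 the difference was 0.26 (SE 0.47, exact permutation p = 0.629, adjusted p = 0.629), and for Rrm1 and Rrm2 it was 0.42 (SE 0.20, exact permutation p = 0.0857, adjusted p = 0.103), neither past the threshold. The pair of Impdh1 and Impdh2 was not tested.

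With PF-303 the same pairs differed with anti-IgD by 1.54 for Ctps and Ctps2, 1.67 for Shmt1 and Shmt2, 0.64 for Prps1 and Prps2, and 0.44 for Mthfd1 and Mthfd1l. In that comparison the exact permutation tests had adjusted p between 0.0159 and 0.0397 for all 6 pairs. PF-303 against vehicle in stimulated cells moved Ctps relative to Ctps2 by -1.34 (SE 0.088, exact permutation p = 0.00794, adjusted p = 0.0159) and Prps1 relative to Prps2 by -0.93 (SE 0.19, exact permutation p = 0.00794, adjusted p = 0.0159). It moved Mthfd1 relative to Mthfd1l by -0.22 (SE 0.077, exact permutation p = 0.00794, adjusted p = 0.0159). Shmt1 relative to Shmt2 differed by -0.10 (SE 0.13, exact permutation p = 0.627, adjusted p = 0.627), so no unequal change was detected there. In all, 13 of 18 tests passed, and 11 did so with the mean of all probe sets of a gene, the losses being Rrm1 and Rrm2 under PF-303 (0.24) and Mthfd1 and Mthfd1l in stimulated cells (-0.28).

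**Figure D5:**
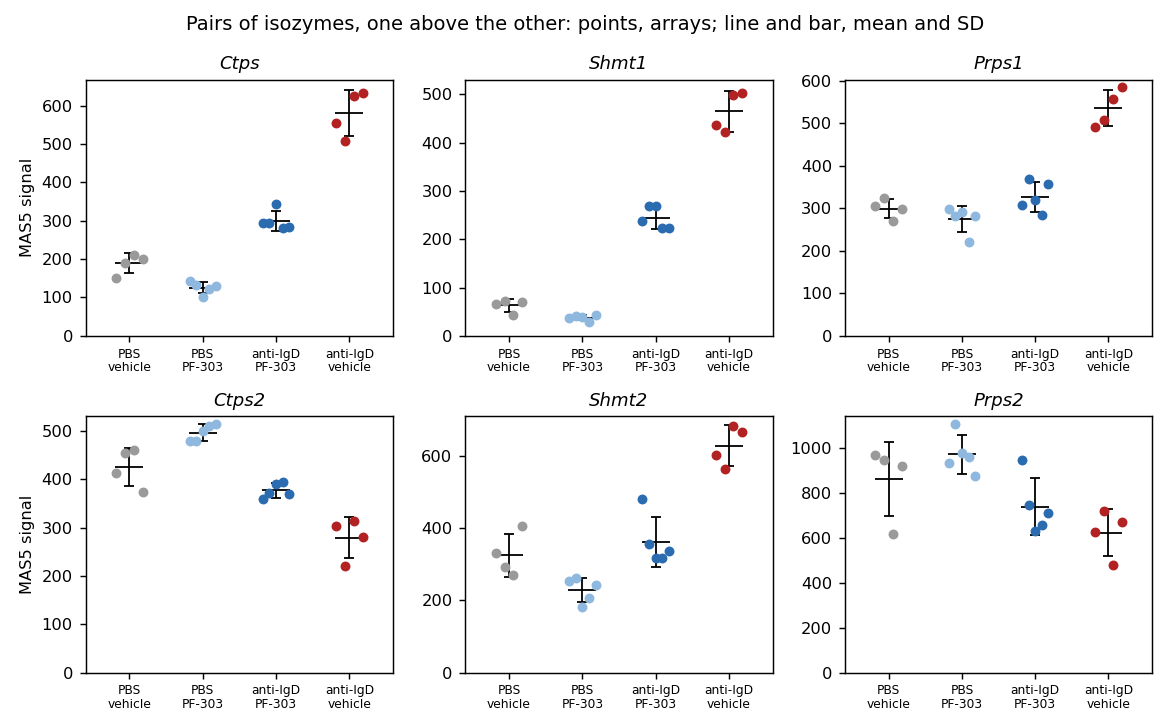
MAS5 signal (vertical axes, linear from 0) of 3 isozyme pairs, 1 above the other, in each array of the 4 groups (horizontal axes); points are arrays, and the line with its bar is the mean and SD. Ctps and Ctps2, and Prps1 and Prps2, run in opposite directions from PBS to anti-IgD with vehicle, while Shmt1 and Shmt2 both rise; levels of different genes are not comparable on these arrays.

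Genes that feed or drain these routes were followed on 5 further lists, which hold none of the 33. Of 16 measured genes of the folate and methyl cycle, anti-IgD in vehicle raised 10 and lowered 1, with a median of 0.33, against 17.4% and 30.6% of all genes and a median of -0.13. Slc19a1, the reduced folate carrier, rose by 1.50 (SE 0.099, adjusted p = 5.29e-11), Gcsh of the glycine cleavage system by 1.42 (SE 0.12, adjusted p = 3.51e-09) and Mtrr, which reactivates methionine synthase, by 1.23 (SE 0.10, adjusted p = 1.37e-09). Mat2b, a regulatory subunit for S-adenosylmethionine synthesis, fell by 0.69 (adjusted p = 3.99e-05). The difference between the responses was below 0 and past the test in 4 of the 16 genes, against 3.12% of all genes: Slc19a1 (-0.77 (adjusted p = 0.00103)), Mtrr (-0.69 (adjusted p = 0.00238)), Gcsh (-0.57 (adjusted p = 0.0328)) and Mtap, a methylthioadenosine phosphorylase named here after its values were seen (-0.33 (adjusted p = 0.0284)). The Gcsh call was lost in 9 of the 18 fits without 1 array and with the row letter as a block (-0.72).

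Serine and glycine supply had 4 of 11 genes higher and 3 lower, or 36.4% and 27.3% against 17.4% and 30.6% of all genes. The amino acid carriers Slc1a4 (0.75 (adjusted p = 0.00455)), Slc38a2 (0.68 (adjusted p = 1.87e-07)) and Slc38a1 (0.66 (adjusted p = 8.04e-07)) rose. Slc1a4 had mean signals of only 7.04 ± 4.98 and 22.7 ± 8.43. It lost its call without the arrays of high control signal (0.49) and with the row letter as a block (0.75). The falls were Sfxn3 (-0.72 (adjusted p = 4.55e-05)) and Sfxn2 (-0.52 (adjusted p = 0.00113)), of the mitochondrial sideroflexin family, and Glul (-0.49 (adjusted p = 0.000184)), glutamine synthetase. Slc38a2 and Slc38a1 responded less with PF-303, by -0.49 (adjusted p = 0.00393) and -0.37 (adjusted p = 0.0377), and the latter call was lost in 11 of the 18 fits without 1 array. Both calls were lost with the row letter as a block (-0.48 and -0.35).

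Purine salvage, interconversion and breakdown had 3 of 22 genes higher and 7 lower. These 13.6% and 31.8% are near the 17.4% and 30.6% over all genes, and the split became 6 and 4 with arrays shifted to one median. Ampd2, an AMP deaminase, rose by 0.77 (adjusted p = 1.36e-05), as did the nucleoside carriers Slc29a1 (0.71 (adjusted p = 0.000224)) and Slc29a2 (0.61 (adjusted p = 0.00986)). Ampd3, another AMP deaminase, fell by 1.28 (adjusted p = 2.79e-10), Ak3, a mitochondrial adenylate kinase family member, by 1.05 (adjusted p = 6.47e-07) and Slc29a3 by 0.79 (adjusted p = 1.2e-06). The fall of Ampd3 was smaller with PF-303, with a difference of 0.67 (adjusted p = 0.00202).

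Pyrimidine salvage and breakdown had 1 of 10 genes higher and 5 lower, against 17.4% and 30.6% of all genes. Uck2, which phosphorylates uridine and cytidine, rose by 1.61 (SE 0.13, adjusted p = 2.01e-09) and responded less with PF-303, by -0.79 (adjusted p = 0.00781), a call lost with the row letter as a block (-0.70). Cmpk2 (-1.32 (adjusted p = 1.6e-09)), Nme7 (-0.68 (adjusted p = 1.77e-05)) and Entpd1 (-0.45 (adjusted p = 0.00169)) were the largest falls, and the call of Entpd1 was lost with quantile normalization (-0.21) and with the row letter as a block (-0.39). Of 10 other genes of deoxynucleotide supply, 2 rose and 5 fell, against the same 17.4% and 30.6%. Dctpp1, which removes modified deoxycytidine triphosphates, rose by 0.86 (adjusted p = 5.4e-06) and Dctd, which deaminates dCMP, by 0.70 (adjusted p = 0.000202). Dck, deoxycytidine kinase, fell by 1.55 (SE 0.091, adjusted p = 9.15e-12), Samhd1, which degrades deoxynucleotides, by 0.89 (adjusted p = 4.1e-09) and Rrm2b, a reductase subunit used outside division, by 0.67 (adjusted p = 2.16e-07).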

How the data were processed

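Each deposited value is the linear intensity of a probe set, computed by the authors with MAS5 per the submitters' processing notes; its version and settings are not given in the sources used here. All 18 arrays had a 2% trimmed mean between 99.963 and 99.968, so each had been scaled to one level, which removes differences in total RNA between groups. The platform annotation gave 1 gene symbol to 34958 of 45101 probe sets, several to 932 and none to 9147, and 64 were controls; symbols were updated through a RefSeq gene table of GRCm38.p6, with 204 probe sets unmatched. From these signals log2(signal + 16) was computed. Probe sets were kept where at least 4 arrays exceeded 15.2, the overall median, with 1 per gene, which left 11104 genes.

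Groups came from the labels. Linear models were fitted with limma 3.58.1 (lmFit, eBayes with trend) in R 4.3.3 with 1 mean per group over all 18 arrays, and 5 contrasts were tested two-sided with Benjamini-Hochberg adjustment over all genes. Isozyme pairs were compared by exact permutation tests in Python 3.11.15. The fit was tested on simulated data. The genes and lists were chosen with earlier results of these data known. Values in every array are given for genes with a log2 change of at least 1 in vehicle, for those past the test in the interaction or in PBS, for those that fell and for isozyme pairs; from each further list up to 3 called genes with the largest rise and up to 3 with the largest fall are named. No pair of arrays held like values: the SD of log2 differences was at least 0.24. The number of arrays limits the precision. The alternatives tried were the offset, the filter, the scale between arrays, the probe set per gene, the arrays in the fit, the variance trend, blocks and covariates, and leaving out arrays.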

Additional observations from a re-analysis of the deposited data

Results flagged for a closer look

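Of 124 sets of linear signals, 1 per gene and group, 12 had an array standing apart from the others by Dixon's criterion. Chance gives this in about 1 of 20 sets of normally distributed values. The share over all genes was not taken, so the count cannot be read as particular to these genes. In anti-IgD with PF-303, replicate 1 was the highest array for Shmt2 (480.7), Ppat (436.2) and Rrm2 (260.5), replicate 2 for Tk1 (59.15), replicate 3 for Ctps (344.7) and replicate 4 for Cad (256.1). In PBS with PF-303, replicate 3 was the highest for Mthfd1 (224.4) and the lowest for Paics (922.8), and replicate 4 was the lowest for Prps1 (221.6). In PBS with vehicle, replicate 3 was the lowest for Prps2 (619.1). In anti-IgD with vehicle, replicate 2 was the lowest for Gmps (381.7) and replicate 4 the highest for Dhodh (162.6). Of these arrays, anti-IgD with PF-303 replicates 1 and 3, PBS with PF-303 replicates 3 and 4 and PBS with vehicle replicate 3 also had high control signals.

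The response to anti-IgD differed between PF-303 and vehicle by the test of the difference itself in 4 synthesis genes: Mthfd2 (-0.97 on the log2 scale), Prps1 (-0.57), Pfas (-0.49) and Psat1 (-0.45). The call of Psat1 was lost in 15 of the 18 fits without 1 array and, like that of Pfas, without the arrays of high control signal and with the row letter as a block. Among the named genes of the further lists it differed in Uck2 (-0.79), Slc19a1 (-0.77), Mtrr (-0.69), Gcsh (-0.57), Slc38a2 (-0.49), Slc38a1 (-0.37) and Ampd3 (0.67).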

How the results depend on the processing

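No log2 change of the 31 genes past the test in any of the 5 comparisons turned its sign under an alternative. Of the 155 values, the row letter as a block lost 12 calls and added 3, leaving out the 6 arrays of high control signal lost 6 and added 8, and a shift to one median lost 1 and added 9. The row letters were not balanced over the groups: row B held only PBS arrays, and row D only replicate 4 of anti-IgD with vehicle. The counts of synthesis genes moved by over 1.5 times in 2 comparisons. For PF-303 in PBS, 2 calls became 1 with an offset of 64, 0 with the row letter as a block, 1 without the arrays of high control signal and 0 with only those groups. For the difference between the responses, 4 calls became 7 with an offset of 64 and 2 with the row letter. The pyrimidine salvage list went from 6 calls to 3 with signals above 100 required, which tests fewer genes; the cause of the other moves was not tested.

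Leaving out each array in turn gave 23 to 25 calls for anti-IgD in vehicle, 15 to 18 for PF-303 in anti-IgD, 1 to 3 for PF-303 in PBS, 22 to 25 for anti-IgD in PF-303 and 3 to 5 for the difference. The further lists gave 10 to 13 (folate), 7 to 9 (serine), 8 to 11 (purine), 6 (pyrimidine) and 7 to 8 (deoxynucleotide). For the isozyme pairs no adjusted p was taken with an array left out, so those fits give differences only. Replicate numbers recur in the groups. Same-numbered arrays correlated at a median of -0.003 over 24 pairs (-0.16 to 0.22, 7 above 0.1), against -0.017 over other pairs. These values gave no sign that the numbers pair samples. They cannot exclude it, since pairing by design need not leave a correlation. With the replicate number as a block the 5 counts were 25, 17, 3, 25 and 3, against 25, 17, 2, 23 and 4. With the control signal as a covariate they were 26, 17, 2, 26 and 3. MAS5 signals near the background limit weak genes such as Tyms, Tk1 and Impdh1.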

Other observations

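With PF-303 in stimulated cells, the further lists gave the following counts, against 19.8% higher and 10.4% lower over all genes. Of the 16 folate and methyl cycle genes 1 was higher and 7 lower than with vehicle, with the folate carrier Slc19a1 at -0.89 (adjusted p = 4.41e-07) and Gcsh at -0.95 (adjusted p = 2.59e-06). Pyrimidine salvage had 6 of 10 genes higher and 1 lower, Cmpk2 at 0.60 (adjusted p = 0.000119) and Uck2 at -1.12 (adjusted p = 1.07e-06). Deoxynucleotide supply had 5 of 10 higher and 2 lower, with Rrm2b at 0.52 (adjusted p = 1.1e-05), Dck at 0.39 (adjusted p = 0.00159) and Dctpp1 at -0.60 (adjusted p = 0.000433). Serine and glycine supply had 1 of 11 higher and 3 lower. Purine salvage, interconversion and breakdown had 5 of 22 higher and 3 lower, or 22.7% and 13.6%, near the shares over all genes. None of the 23 proliferation markers passed the limma test in this comparison, and the lists were not tested as sets.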
